A study of Mus musculus with 15 samples.

Results

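The imprinted genes and transcripts examined here were Peg3, Peg3os, H19, Igf2, Meg3, Rian, Cdkn1c, Plagl1, Ndn and Gnas, a list of 10 symbols fixed by name and not by their values. Of these, 9 were found among the 10222 gene symbols of the expression table, and H19 was not analysed here. RNA came from 5 sorted populations of C57BL/6 mice heterozygous for an Il33-citrine reporter, with 3 libraries of each from independent experiments and 15 in all. Il33+ WAT-MSC and Il33- WAT-MSC were citrine-positive and citrine-negative stromal cells of white adipose tissue, which the sample labels call mesenteric, gated as negative for lineage markers, CD45, EpCAM, CD31 and CD24 and positive for PDGFRα, CD34, Sca1 and podoplanin. Lung Il33+ MSC were the citrine-positive stromal cells of lung, WAT endothelial cells were CD31+ cells of white adipose tissue, with no depot named in their labels, and lung epithelial cells were EpCAM+ cells of lung. All groups carried the reporter and no group was treated. Levels are given in RPKM, read counts scaled by the length of the transcript and by the mapped reads of the library, summed over the listed transcripts of a symbol.

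Imprinted genes are expressed mainly from the maternal or mainly from the paternal chromosome, because DNA methylation laid down in egg or sperm is kept at control regions through development. Many of them regulate fetal and placental growth, and a network of them is known to be high in the fetus, to fall after birth and to persist in stromal and stem cells of adult tissues. Peg3, Ndn, Plagl1 and Igf2 are known to be transcribed from the paternal copy, and Meg3, Rian and Cdkn1c from the maternal copy. The mice were inbred and the values are totals per transcript, so the allele of origin was not measured in these libraries.

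The start regions of listed transcripts of Meg3, Peg3 and Igf2 are shown first, to place the transcripts and their start sites. The methylated control regions of Igf2 and Meg3 are known to lie at a distance from these starts. They come from RefSeq (GRCm38.p6) windows of 300 bases, which held 14 windows for 7 of the genes. In each, the stretch before the start site that lies outside every annotated exon is given 5′ to 3′ on the strand of the gene. The Meg3 stretch is chr12:109540746-109540995 on the plus strand, the Peg3 stretch is chr7:6730432-6730577 on the minus strand, and the Igf2 stretches, before the start sites of the listed NM_001315488 and NM_001122737, are chr7:142666817-142667066 and chr7:142657497-142657746 on the minus strand. Capitals mark matches to the searched motifs on either strand.
Meg3: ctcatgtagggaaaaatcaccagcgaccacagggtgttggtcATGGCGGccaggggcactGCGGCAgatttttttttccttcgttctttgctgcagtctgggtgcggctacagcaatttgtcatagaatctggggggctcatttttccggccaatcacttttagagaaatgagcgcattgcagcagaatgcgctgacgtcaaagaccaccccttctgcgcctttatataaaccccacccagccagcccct
Peg3: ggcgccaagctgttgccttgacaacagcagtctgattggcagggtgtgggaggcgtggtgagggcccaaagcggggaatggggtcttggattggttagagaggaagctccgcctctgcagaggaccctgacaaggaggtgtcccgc
Igf2 (NM_001315488): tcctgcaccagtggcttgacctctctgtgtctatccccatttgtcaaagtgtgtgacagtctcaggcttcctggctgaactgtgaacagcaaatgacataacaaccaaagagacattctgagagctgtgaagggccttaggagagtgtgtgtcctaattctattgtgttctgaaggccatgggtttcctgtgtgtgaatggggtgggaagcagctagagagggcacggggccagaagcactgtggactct
Igf2 (NM_001122737): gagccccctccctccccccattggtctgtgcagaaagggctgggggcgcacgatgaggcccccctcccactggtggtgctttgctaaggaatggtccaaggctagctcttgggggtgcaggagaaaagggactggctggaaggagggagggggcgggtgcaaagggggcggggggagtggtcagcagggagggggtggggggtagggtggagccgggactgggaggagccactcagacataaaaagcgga

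The motifs searched were the TGCCGC hexamer read by ZFP57, a zinc finger protein that protects methylated imprints, the ATGGCGG core of YY1 and the GGGGCCC core of PLAGL1. TGCCGC was found in 3 of the 14 windows, of Meg3, Plagl1 and an Igf2 start with no listed transcript, and in 11.6% of all 32851 windows. The Meg3 window also held ATGGCGG, the 2 matches starting at positions -190 and -208 from the start site, and ATGGCGG was in 4.05% of all windows. GGGGCCC was found in 2 windows, of Peg3 and of the most upstream Gnas start, and in 6.66% of all windows. In Peg3 it started at -201 and, overlapping on the other strand, at -200, a stretch that is annotated as exon and is not printed. The member windows had a median GC content of 61.1% against 52.7% over all windows, and a median of 13.5 CpG against 7.0. A match here describes letters and not a bound site.

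The gates were reflected in the markers. The 12 stromal markers summed to between 5225 and 10510 RPKM in the 9 MSC libraries and to between 172.0 and 280.9 in lung epithelial cells, where the 8 epithelial markers reached at least 162100. Nearly all of that sum was Scgb1a1, at 160613, 208003 and 179632 RPKM in the epithelial libraries. Scgb1a1 also stood between 56.07 and 134.15 RPKM in the WAT libraries. WAT endothelial cells had the highest levels of the 10 endothelial markers, between 546.1 and 612.3, but their stromal markers stood at medians of 32.6, 36.4 and 66.9% of the Il33+ WAT-MSC level in replicates 1, 2 and 3. Mesothelial markers, 8 of 9 listed, summed to between 40.1 and 129.4 in Il33+ WAT-MSC and between 21.5 and 37.3 in Il33- WAT-MSC. They summed to between 5.06 and 8.29 in lung Il33+ MSC, 56.7 and 220.3 in endothelial cells and 82.4 and 155.9 in lung epithelial cells. In the epithelial libraries Krt19 of this list alone stood at 75.5, 134.1 and 152.8 RPKM. Alveolar macrophage markers, 6 of 8 listed, summed to between 183.6 and 230.4 in lung Il33+ MSC and between 3.05 and 7.3 in Il33+ WAT-MSC. They summed to between 715.7 and 1379 in lung epithelial cells, where Lyz2 alone stood at 658.02, 1059.35 and 1301.32 RPKM. The libraries of the other listed macrophage markers overlapped between lung Il33+ MSC and lung epithelial cells. Chil3, for example, stood between 33.7 and 56.93 RPKM in the former and between 41.02 and 48.08 in the latter. Pericyte and smooth muscle markers, all 9 listed, summed to between 32.2 and 39.6 in Il33+ WAT-MSC, 6.33 and 16.6 in Il33- WAT-MSC, 107.8 and 115.1 in lung Il33+ MSC and 222.7 and 293.0 in endothelial cells, and 8.08 and 17.2 in epithelial cells, with no marker at 0 in all libraries of a population. The part of these other cells in the results below was not tested, and in sorted bulk RNA fewer cells of a type and less RNA per cell cannot be told apart.

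Peg3, a large zinc finger protein gene at chr7:6703892-6730462 on the minus strand, was a stromal transcript in these libraries. It stood at 29.3, 13.2 and 31.5 RPKM in Il33+ WAT-MSC and at 20.2, 15.8 and 25.7 in Il33- WAT-MSC. Lung Il33+ MSC had 43.0, 50.1 and 34.6 RPKM. All 9 MSC libraries lay above the epithelial ones, which had 0.79, 1.55 and 1.74 RPKM, and the endothelial values of 6.22, 12.7 and 17.9 RPKM overlapped the WAT-MSC. Lung Il33+ MSC did not overlap any other population, and the means differed 31.3-fold between lung Il33+ MSC and lung epithelial cells.

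Peg3os is an antisense RNA of 865 bases at chr7:6706760-6707624, and all of these bases lie within the last exon of Peg3 (6703892 to 6711731) on the other strand. It stood at 24.2, 14.3 and 36.2 RPKM in Il33+ WAT-MSC, at 11.9, 15.5 and 31.8 in Il33- WAT-MSC and at 68.8, 55.4 and 37.8 in lung Il33+ MSC. Strand-specific counting is not given in the sources used here, so reads of Peg3 and of Peg3os in this stretch cannot be told apart. Endothelial cells had 1.46, 7.31 and 0.49 RPKM and epithelial cells 1.09, 1.42 and 0, so both lay below every MSC library. The level of Peg3os relative to Peg3 was between 0.589 and 1.60 in the 9 MSC libraries and 0.235, 0.576 and 0.0274 in the endothelial ones.

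Ndn encodes necdin, a MAGE family protein known to restrain growth and adipocyte formation, from chr7:62348277-62349928. Its levels were 25.2, 17.8 and 38.7 RPKM in Il33+ WAT-MSC, 26.0, 31.4 and 30.1 in Il33- WAT-MSC and 14.6, 13.4 and 15.5 in lung Il33+ MSC. Ndn was therefore higher in the stromal cells of fat than in those of lung, with no overlap. Epithelial cells had 0.26, 0.41 and 0.72 RPKM. The endothelial libraries were split, with 0.58 RPKM in replicate 1 and 15.4 and 11.4 in replicates 2 and 3.

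Meg3 and Rian are long non-coding RNAs of the Dlk1-Dio3 domain, at chr12:109540996-109571729 and chr12:109603945-109661716, and Rian is a known host of small nucleolar RNAs. Meg3 stood at 29.8, 29.7 and 37.3 RPKM in Il33+ WAT-MSC, at 58.5, 27.5 and 24.9 in Il33- WAT-MSC, at 32.3, 27.7 and 24.5 in lung Il33+ MSC and at 13.7, 27.7 and 21.9 in endothelial cells. Neighbours in the order of these 4 means overlapped, while Il33+ WAT-MSC lay above endothelial cells, and replicate 1 of the Il33- WAT-MSC was far above the rest. Epithelial cells had 0.45, 0.58 and 0.96 RPKM of Meg3. Rian stood at 19.2, 35.7 and 21.2 RPKM in Il33+ WAT-MSC, 24.5, 16.5 and 16.2 in Il33- WAT-MSC, 14.1, 18.7 and 15.5 in lung Il33+ MSC and 17.98, 10.8 and 10.8 in endothelial cells. Its epithelial values of 1.02, 0.46 and 0.63 RPKM were below all others.

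Igf2, the growth factor gene at chr7:142650768-142666816, had another pattern. It was highest in endothelial cells, at 63.6, 23.9 and 26.4 RPKM, and next in lung Il33+ MSC, at 23.3, 15.1 and 28.8 RPKM, and these populations overlapped. Il33+ WAT-MSC had 2.28, 7.69 and 4.56 RPKM and lung epithelial cells 4.03, 2.84 and 4.54. Il33- WAT-MSC had the least, 0.07, 0.84 and 0.66 RPKM, with every library below those of the other populations. Among the 10222 symbols the mean of Igf2 ranked 601 in endothelial cells and 8869 in Il33- WAT-MSC. The sums of pericyte and smooth muscle markers were ordered like the Igf2 means, from Il33- WAT-MSC to Il33+ WAT-MSC, lung Il33+ MSC and endothelial cells. Most single markers did not follow that order, Kcnj8, Myh11, Mcam and Notch3 among them. Over these populations in turn, Rgs5 had means of 4.39, 11.9, 0.503 and 188.1 RPKM, and Abcc9 1.59, 19.1, 84.6 and 15.4. Acta2 did follow the order, at 0.82, 1.00, 1.75 and 16.6, and so did Tagln, at 0.913, 1.62, 2.58 and 8.04. The part of the cells with these markers in the Igf2 levels was not tested.

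Cdkn1c, at chr7:143458339-143461059, encodes the cell cycle inhibitor p57Kip2 and was the member that was highest in epithelium. Lung epithelial cells had 26.4, 22.7 and 26.4 RPKM, above all 9 MSC libraries. Il33+ WAT-MSC had 11.1, 11.2 and 12.5 RPKM and lung Il33+ MSC 9.33, 9.52 and 10.3. Il33- WAT-MSC had 4.30, 9.41 and 5.49 RPKM, which overlapped the endothelial values of 4.47, 3.79 and 11.1 RPKM.

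Plagl1, a zinc finger transcription factor gene at chr10:13090832-13131694 known to act on other imprinted genes, varied least after Gnas. It stood at 6.48, 15.3 and 9.98 RPKM in Il33+ WAT-MSC, 6.05, 5.41 and 3.72 in Il33- WAT-MSC, 10.7, 6.84 and 7.95 in lung Il33+ MSC and 5.58, 5.51 and 6.18 in epithelial cells. Endothelial replicate 1 had 23.5 RPKM while replicates 2 and 3 had 3.76 and 3.45. The means of the populations differed at most 2.09-fold.

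Gnas, at chr2:174284320-174346744, encodes the stimulatory G protein alpha subunit and several other products, and was abundant everywhere, with means that ranked between 42 and 61 of 10222 symbols. It stood at 308.7, 437.6 and 428.7 RPKM in Il33+ WAT-MSC, 262.2, 365.9 and 379.9 in Il33- WAT-MSC and 380.5, 386.1 and 414.9 in lung Il33+ MSC. Endothelial cells had 266.7, 253.9 and 338.1 RPKM and epithelial cells 304.1, 244.2 and 246.3. Neighbours in the order of the means overlapped throughout, and the highest mean was 1.49 times the lowest.

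**Figure D1:**
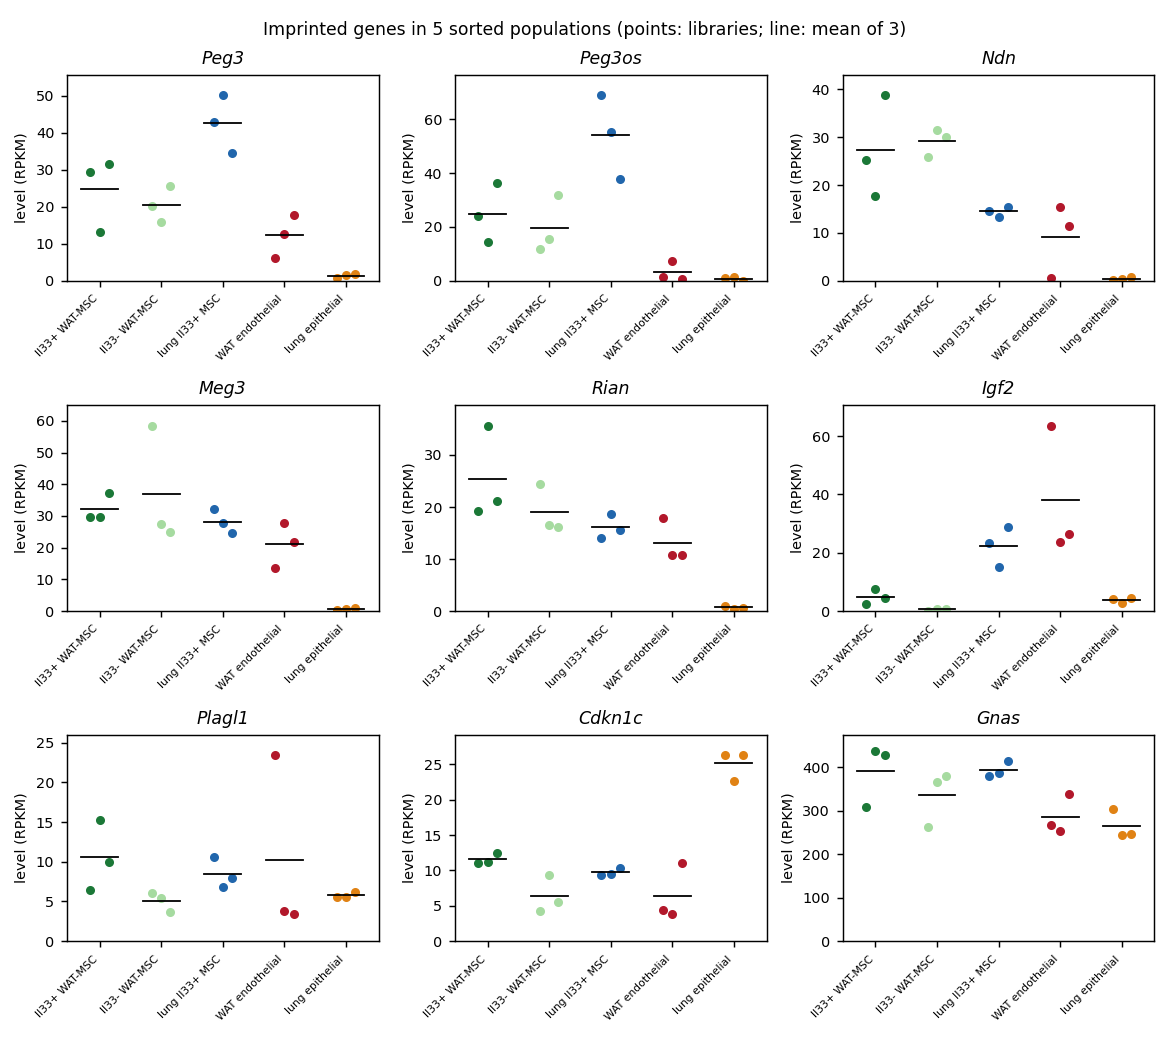
Level in RPKM (y axis, linear from 0) of the 9 imprinted genes in each of the 5 populations; points are libraries and the line is the mean of 3. Peg3, Peg3os, Ndn, Meg3 and Rian were near 0 in lung epithelial cells, Cdkn1c was highest there at 22.7 to 26.4 RPKM, and Igf2 was highest in WAT endothelial cells.

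The first comparison asked how citrine-positive and citrine-negative stromal cells of the same fat differed. None of the 9 imprinted genes passed the threshold between Il33+ and Il33- WAT-MSC (limma on log2(RPKM + 1), Benjamini-Hochberg adjusted p under 0.05), where 1.57% of all 8448 genes tested did, 0.923% higher and 0.651% lower in Il33+ WAT-MSC. At an unadjusted p under 0.05 there were 3, Igf2, Cdkn1c and Plagl1. The same 3 genes were those whose libraries did not overlap, all higher in Il33+ WAT-MSC, against 17.5% of all genes. On the log2(RPKM + 1) scale, which understates the change of low values, Igf2 differed by 1.87 (SE 0.43, 95% interval 0.92 to 2.81, limma adjusted p = 0.0618). However, Igf2 passed the filter on low values through the Il33+ libraries alone and had to differ. Its direction and lack of overlap were therefore set by the filter. The limma adjusted p of Igf2 was 0.0207 with the replicate number as a block, 0.0364 with all 15 libraries in the fit and 0.0486 after median-ratio scaling, and reached 0.2 under other alternatives. Cdkn1c differed by 0.82 (SE 0.31, limma adjusted p = 0.307) and Plagl1 by 0.88 (SE 0.34, limma adjusted p = 0.335).

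The other members differed by less between Il33+ and Il33- WAT-MSC, from -0.16 for Ndn to 0.37 for Rian. Their 95% intervals ran from -0.55 to 0.92 for Peg3, from -0.78 to 0.47 for Ndn and from -0.78 to 0.59 for Meg3, so differences of that size cannot be told from none in these libraries. The median difference of the 9 genes was 0.35 against -0.01 for all genes, a value that includes Igf2. Within sequencing lanes, named in the library names, Igf2 differed by 1.93 in lane 1 and by 1.74 in lane 2, and Meg3 by -0.42 and 0.56. Of the 7 tested mesothelial markers, Gpm6a and Upk1b were past the threshold in the same direction as Igf2 (limma). Of the 5 tested pericyte and smooth muscle markers, Abcc9 was past it in that direction, with means of 19.1 RPKM in Il33+ and 1.59 in Il33- WAT-MSC (difference 2.96, limma adjusted p = 0.00126). Notch3 of that list went the other way, with means of 0.273 and 1.85 RPKM, as did Wt1 of the mesothelial list, with 11.8 and 15.9. Neither was past the threshold (differences -1.15 and -0.35, limma adjusted p = 0.241 and 0.740). The part of these cells in the Igf2 difference was not tested.

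The comparison of Il33+ stromal cells of fat and lung asked which genes differ between tissues. Igf2 alone of the 9 genes passed the threshold, where 6% of the 8554 genes tested did, 2.5% higher and 3.5% lower in fat, and it was lower in Il33+ WAT-MSC by a log2 difference of -2.07 (SE 0.36, limma adjusted p = 0.00762). The direction and the call of Igf2 held under every alternative run, with adjusted p between 0.00251 and 0.0473, and the difference was -2.19 within lane 1 and -1.98 within lane 2. The libraries of 6 genes did not overlap, against 23.1% of all genes. Peg3os and Peg3 were lower in Il33+ WAT-MSC by differences of -1.14 and -0.84 (limma adjusted p = 0.0787 and 0.181), and Ndn, Rian and Cdkn1c were higher by 0.80, 0.58 and 0.23 (limma adjusted p = 0.140, 0.284 and 0.645). Without replicate 2 of the Il33+ WAT-MSC the adjusted p of Ndn by limma was 0.0272, and without replicate 3 that of Peg3os was 0.0344. Within lanes Peg3os differed by -1.83 in lane 1 and -0.33 in lane 2, and Peg3 by -1.09 and -0.39. Markers of other cells differed as well. In lung Il33+ MSC the endothelial markers Pecam1 and Cdh5 had means of 8.58 and 13.15 RPKM against 2.34 and 4.003 in Il33+ WAT-MSC (limma adjusted p = 0.0215 and 0.0180). The epithelial markers Sftpc, Sftpb and Cldn18, all 6 tested alveolar macrophage markers, and Abcc9 and Kcnj8 of the pericyte list were past it and higher in lung (limma). Past it and higher in fat were 6 of 7 mesothelial markers and Rgs5 (limma). Sftpb, Cldn18, Chil3, Ear1, Marco and Mrc1 passed the filter on low values through the lung Il33+ MSC libraries alone and had to differ. Gpm6a, Lrrn4, Msln, Wt1 and Rgs5 passed it through the Il33+ WAT-MSC libraries alone and had to differ too. The part of these other cells in the differences was not tested.

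Igf2 and Peg3os differed in opposite directions between Il33+ WAT-MSC and WAT endothelial cells. These were 2 of 9 genes past the threshold, where 3.9% of the 8665 genes tested were, 0.565% higher and 3.34% lower in Il33+ WAT-MSC. Igf2 was lower in Il33+ WAT-MSC by -2.71 (SE 0.48, limma adjusted p = 0.0171), and the endothelial libraries held 1314, 492.6 and 544.5% of its mean in Il33+ WAT-MSC. Peg3os was higher by 2.96 (SE 0.63, limma adjusted p = 0.0370), and the endothelial libraries held 5.87, 29.4 and 1.97% of the mean in Il33+ WAT-MSC. Peg3, whose last exon contains Peg3os, stood at 25.2, 51.5 and 72.5% (difference 0.97, SE 0.46, limma adjusted p = 0.362).

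Neither call against endothelium held under all alternatives. The adjusted p of Peg3os by limma was over 0.05 in 5 of the 6 fits that left out a library, between 0.0593 and 0.172, and 0.0774 with a pseudocount of 0.1. Igf2 lost its call without replicate 1 or 3 of the Il33+ WAT-MSC or without replicate 2 of the endothelial cells, with limma adjusted p between 0.0668 and 0.075, and both lost it with no filter on low values (0.0583 and 0.109). Meg3, Rian and Ndn also did not overlap, with differences of 0.64, 0.88 and 1.98 and limma adjusted p of 0.390, 0.266 and 0.269, which made 5 of 9 genes against 23.2% of all genes. The endothelial libraries held 42.3, 85.9 and 67.8% of Meg3 and 71.0, 42.4 and 42.4% of Rian, next to stromal markers at 32.6, 36.4 and 66.9%. Replicate 1 of the endothelial cells stood apart from the others in Ndn, Plagl1 and Igf2, in different directions. Within lanes the difference of Igf2 was -2.91 in lane 1 and -2.30 in lane 2, and that of Peg3os was 2.12 and 4.64. Median-ratio scaling moved the median of all genes in this comparison by -0.13, from 0.18 to 0.04, and left Igf2 at -2.86 and Peg3os at 2.74, both past the threshold (limma adjusted p = 0.0230 and 0.0347).

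Among the 4 comparisons made, the stromal and epithelial cells of lung differed in the most genes. Of the 9 genes, 7 were higher in lung Il33+ MSC and 1 was lower, where 43% of the 9352 genes tested passed, 24.4% higher and 18.5% lower. Peg3os had the largest difference, 4.96 (SE 0.37, limma adjusted p = 6.81e-06), followed by Peg3 at 4.21 (SE 0.26, limma adjusted p = 2.46e-06) and Meg3 at 4.14 (SE 0.25, limma adjusted p = 2.11e-06). Ndn differed by 3.41 (SE 0.26, limma adjusted p = 6.64e-06), Rian by 3.33 (SE 0.26, limma adjusted p = 8.52e-06) and Igf2 by 2.26 (SE 0.29, limma adjusted p = 0.000191). All epithelial values of Meg3 and Ndn were under 1 RPKM, so these genes passed the filter on low values through the lung Il33+ MSC libraries alone and had to differ. Cdkn1c went the other way, lower in lung Il33+ MSC by a difference of -1.28 (SE 0.20, limma adjusted p = 0.000647).

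Gnas and Plagl1 moved little between lung Il33+ MSC and lung epithelial cells. Gnas differed by 0.58 (SE 0.20, limma adjusted p = 0.0468), and Plagl1 by 0.47 (SE 0.24, 95% interval -0.08 to 1.02, limma adjusted p = 0.154). Median-ratio scaling moved the median of all genes by -0.28, from 0.13 to -0.15, and the calls from 2285 higher and 1734 lower to 1807 higher and 2310 lower. After that scaling Gnas differed by 0.22 (limma adjusted p = 0.501) and lost its call, and it also lost it in 5 of the 6 fits without a library. The call of Gnas was lost as well with all 15 libraries in the fit, with a pseudocount of 0.1 and with no filter (limma adjusted p = 0.0604, 0.0559 and 0.0572). The other 7 called genes kept direction and call under every alternative in which they were tested, with Cdkn1c at -1.62, Igf2 at 1.94 and Peg3os at 4.71 after scaling. Within lanes Cdkn1c differed by -1.41 in lane 1 and -1.22 in lane 2, Igf2 by 2.27 and 2.25, and Peg3 by 4.62 and 4.01. The libraries of all 9 tested genes did not overlap, against 53.4% of all genes, and the median difference of the 9 genes was 3.33 against 0.13, values that include Meg3 and Ndn. The 2 Il33+ populations each entered more than 1 comparison, so the comparisons are not independent of each other.

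**Figure D2:**
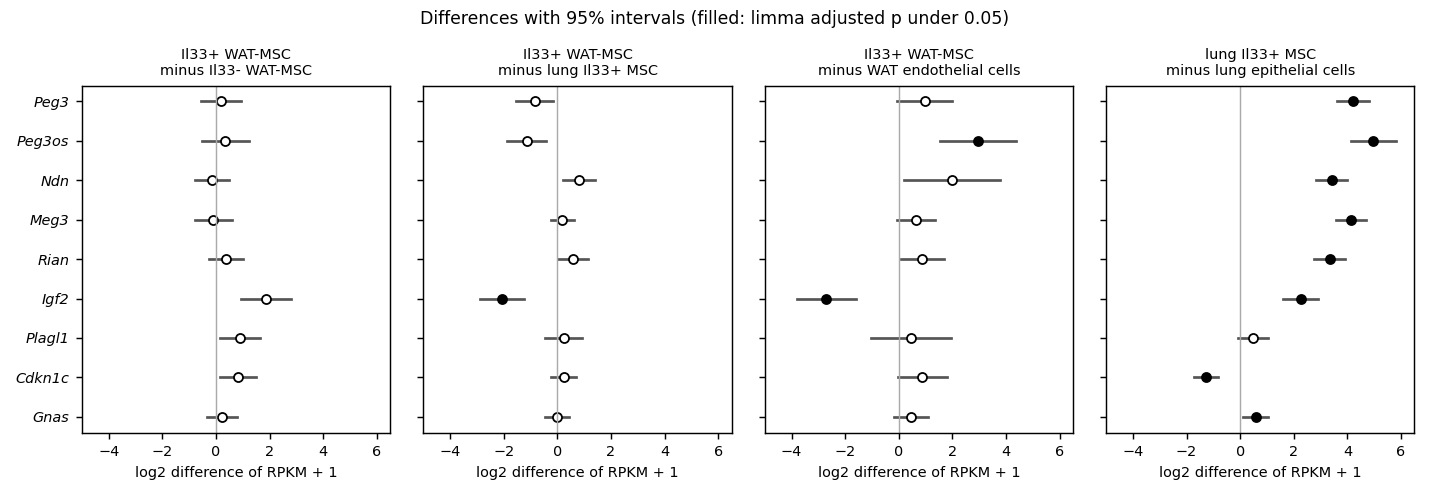
Difference on the log2(RPKM + 1) scale (x axis) for each imprinted gene in the 4 comparisons, as the first population minus the second, with 95% intervals; filled points passed the limma threshold. No gene was filled in the first panel, Igf2 alone in the second, Igf2 and Peg3os in opposite directions in the third, and 8 of 9 in the fourth, with Cdkn1c at -1.28 the only one below 0.

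Other known imprinted genes were counted in the same comparisons. Of the paternally expressed ones, 13 of 26 were listed, and of the maternally expressed or biased ones 13 of 23. Between lung Il33+ MSC and lung epithelial cells, 6 of the 10 tested paternal genes and 3 of the 11 tested maternal genes were higher and none was lower (limma), next to the 24.4% and 18.5% of all genes. In the other 3 comparisons none of either list passed the limma threshold. At an unadjusted p under 0.05 there were 2, 1 and 1 paternal genes and 2, 0 and 2 maternal genes in these comparisons, in the order used above.

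Among the paternal genes, Sgce, which encodes epsilon-sarcoglycan, stood at 24.6, 29.4 and 29.6 RPKM in lung Il33+ MSC and at 6.33, 4.66 and 6.59 in epithelial cells (difference 2.08, SE 0.22, limma adjusted p = 6.1e-05). Its neighbour Peg10, derived from a retrotransposon, differed by 1.81 (SE 0.40, limma adjusted p = 0.00505), Rtl1 by 1.59 (SE 0.29, limma adjusted p = 0.00188) and Mest by 1.56 (SE 0.30, limma adjusted p = 0.00244). Airn and Impact were higher by 1.10 and 1.08 (limma adjusted p = 0.0126 and 0.0263), and both lost the call after median-ratio scaling (0.0796 and 0.0503). Airn also lost it without replicate 1 of the lung Il33+ MSC (limma adjusted p = 0.0532), and Impact with all 15 libraries in the fit (0.0587) and without replicate 2 or 3 of the lung Il33+ MSC or replicate 1 or 3 of the epithelial cells (between 0.0572 and 0.118). In the comparison of Il33+ and Il33- WAT-MSC, Mest stood at 18.6, 14.3 and 26.2 RPKM against 31.4, 37.3 and 41.3, and Airn at 10.7, 12.7 and 13.3 RPKM against 27.0, 25.6 and 19.5. Their libraries did not overlap, and the adjusted p was over the threshold for both genes, with differences of -0.90 and -0.92 (limma adjusted p = 0.165 and 0.108).

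Among the maternal genes, Grb10, an adaptor protein that restrains insulin and IGF signalling, stood at 26.7, 36.0 and 35.7 RPKM in lung Il33+ MSC and at 3.06, 2.56 and 4.97 in epithelial cells (difference 2.92, SE 0.27, limma adjusted p = 2.18e-05). Zim1, which lies next to Peg3 at chr7:6674444-6696540, had 3.47, 7.41 and 3.38 RPKM against 0.04, 0.01 and 0.05 (difference 2.41, SE 0.32, limma adjusted p = 0.000219). Zim1 here, and Rtl1 above, passed the filter on low values through the lung Il33+ MSC libraries alone, where they are high. Igf2r, which takes up IGF2 for degradation, had 20.4, 15.97 and 14.2 RPKM against 4.62, 9.83 and 8.60 (difference 1.08, SE 0.29, limma adjusted p = 0.0151), a call lost without replicate 1 of the lung Il33+ MSC (0.0632). Ppp1r9a and Copg2, named here after their values were seen, had the most negative differences of this list, -0.89 and -0.61, neither past the threshold (adjusted p by limma 0.136 and 0.148).

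**Figure D3:**
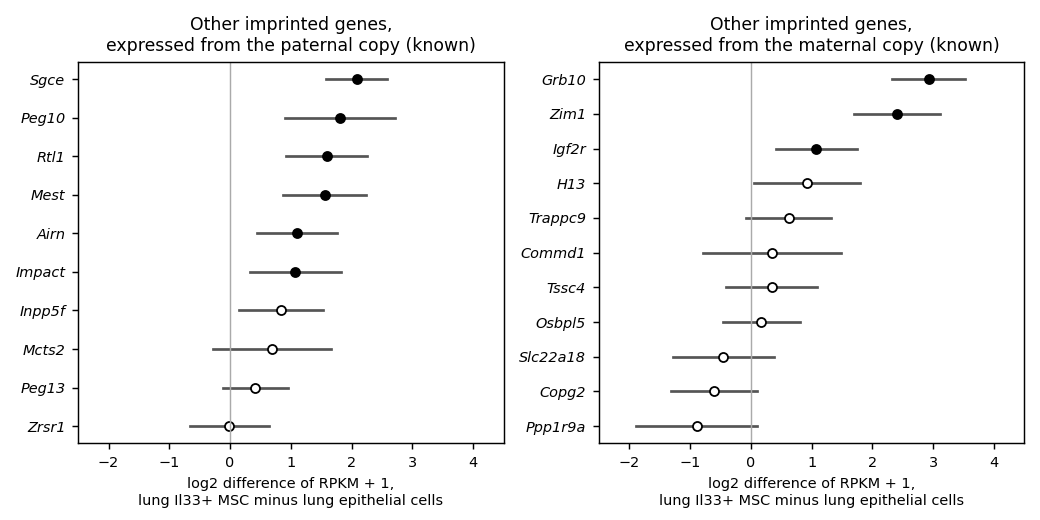
Difference on the log2(RPKM + 1) scale (x axis) between lung Il33+ MSC and lung epithelial cells for the tested imprinted genes outside the 10, by the parental copy they are known to be expressed from, with 95% intervals; filled points passed the limma threshold. All 9 filled genes lay above 0, from 1.08 to 2.92.

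Lists of genes that work with the members were counted against the same shares, 24.4% of all genes higher and 18.5% lower in lung Il33+ MSC than in epithelial cells. Of 7 tested genes of IGF2 reception and of Igf2 mRNA binding, Irs1, Irs2 and Igf2r were higher in lung Il33+ MSC than in epithelial cells, Irs1 and Irs2 by 2.47 and 2.02 (limma adjusted p = 0.000236 and 0.00266), and none of the 7 passed in the other comparisons, where 1, 0 and 1 had an unadjusted p under 0.05 (limma). Of the 4 tested CDK inhibitors other than Cdkn1c, Cdkn2d and Cdkn1a were higher in lung Il33+ MSC by 1.31 and 0.67, opposite in sign to Cdkn1c, and none passed in the other comparisons, where 1, 0 and 0 had an unadjusted p under 0.05 (limma). Cdkn1a fell below the threshold after scaling, with a difference of 0.31 (limma adjusted p = 0.281), and both did with all 15 libraries in the fit (0.101 for Cdkn2d and 0.128 for Cdkn1a). Without a library, Cdkn1a lost its call in all fits but that without replicate 3 of the epithelial cells, with limma adjusted p between 0.0596 and 0.135. Cdkn2d passed the filter on low values through the lung Il33+ MSC libraries alone.

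Of the 9 tested factors listed for keeping or changing DNA methylation and imprints, Tet2, an enzyme that oxidises methylcytosine, was higher in lung Il33+ MSC by 1.05 (SE 0.21, limma adjusted p = 0.00271). The list had no gene past the threshold elsewhere, nor any at an unadjusted p under 0.05 (limma). Of the 17 tested G protein alpha subunits and adenylyl cyclases, which act with the product of Gnas, 8 were higher and 3 lower in lung Il33+ MSC, next to 24.4% and 18.5% of all genes. Gna14 had the most negative difference, -2.49, and Adcy2 the most positive, 1.67. Adcy2 had 2.38, 4.54 and 5.13 RPKM in lung Il33+ MSC and no more than 0.91 in any other population, and it passed the threshold against Il33+ WAT-MSC as well (difference -1.82 for Il33+ WAT-MSC minus lung, limma adjusted p = 0.00861). Adcy2 entered both tests, and Adcy3 that of the lung populations, through the lung Il33+ MSC libraries alone, and Gna14 and Gnal entered theirs through the epithelial libraries alone. Adcy4 had 15.9, 11.2 and 15.3 RPKM in endothelial cells and at most 2.63 in the others, and it passed the threshold against Il33+ WAT-MSC (difference -2.85, limma adjusted p = 0.00865), but not without replicate 2 of the endothelial cells (0.0613). Gnal, Gnaz, Gnao1, Adcy3 and Gnai1 differed between the lung populations by -1.46, -1.43, 1.32, 1.19 and 1.14. Gnao1 lost its call with all 15 libraries in the fit, after scaling and with the most abundant transcript (limma adjusted p = 0.0530, 0.0533 and 0.0655), and Gnai1 with all 15 libraries and without replicate 1 or 2 of the lung Il33+ MSC (0.0606, 0.0677 and 0.0913). None of the tested proliferation genes, between 2 and 4 in a comparison, passed the threshold, and 1 had an unadjusted p under 0.05 in each of the last 2 comparisons (limma).

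Genes near the members that are not known to be imprinted were counted too. Of the 14 tested, Stx11 near Plagl1, Ctsz near Gnas and Phactr2 near Plagl1 were higher in lung Il33+ MSC than in epithelial cells, by 2.41, 1.84 and 1.09, and none was lower, next to 24.4% and 18.5% of all genes. Wars, a tRNA synthetase gene on the side of Dlk1, was lower in Il33+ WAT-MSC than in endothelial cells by -1.82, a call that was lost in 11 of its alternatives. No other gene of the 14 passed the threshold in the 4 comparisons, with 1, 1, 2 and 4 in all at an unadjusted p under 0.05 (limma).

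Between Meg3 and Mir410 14 symbols were listed, Meg3 and Rian included, and all of them were low in epithelial cells. Rtl1 is known to be transcribed from the paternal copy on the strand opposite to Meg3. It stood between 0.54 and 5.40 RPKM in the MSC, at 0.01, 3.37 and 3.3 in endothelial cells and at most at 0.5 in epithelial cells. Mirg, a host of miRNAs, stood between 0.49 and 8.14 RPKM in the 9 MSC libraries, at 0, 2.60 and 1.98 in endothelial cells and at most at 0.11 in epithelial cells. The snoRNA row AF357425 was between 1.29 and 23.7 RPKM in the MSC, between 0 and 5.78 in endothelial cells and listed at 0, 0.39 and 0 in epithelial cells. The other 4 snoRNA rows were listed at 0 in every epithelial library, and each also fell to 0 in the MSC and in endothelial cells.

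The 5 miRNA rows of the domain, Mir665, Mir1188, Mir370, Mir453 and Mir410, held values of at most 7.72 RPKM and were listed at 0 in every epithelial library. Zeros were not limited to epithelium. Mir410 was also at 0 in every Il33+ WAT-MSC, lung Il33+ MSC and endothelial library, and Mir453 in every lung Il33+ MSC library. Mir1188 and Mir370 had a lowest value of 0 in each of these 3 populations. These rows have 79 to 120 bases, cover hairpins inside longer RNAs, and do not measure mature miRNAs. Replicate 1 of the Il33- WAT-MSC, the library that was highest in Meg3, was also highest in Mir665 (7.72 RPKM), Mir1188 (3.53), Mir370 (6.12), Mir410 (6.42), AF357425 (23.7) and Mirg (8.14). Mature forms that these hairpins give are shown, as RefSeq has them, to place the rows, with bases 2 to 8, the seed, in capitals. They lie at chr12:109618305-109618326, chr12:109743764-109743784 and chr12:109586368-109586387 on the plus strand, and their seeds differ.
miR-370-3p: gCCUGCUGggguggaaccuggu
miR-410-3p: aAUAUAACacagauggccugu
miR-665-3p: aCCAGGAGgcugaggucccu

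**Figure D4:**
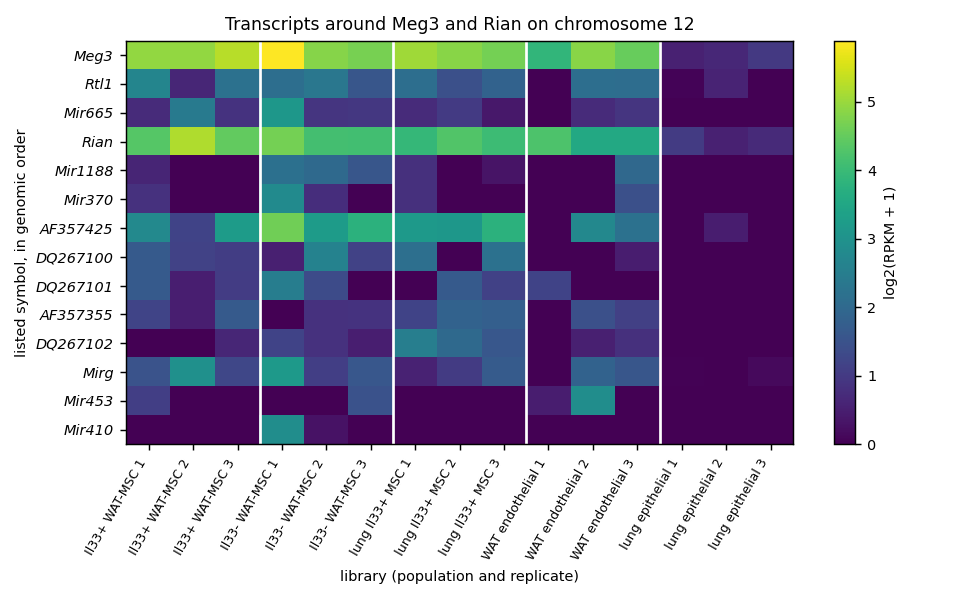
Colour gives log2(RPKM + 1) of the 14 listed symbols around Meg3 and Rian (rows, in genomic order) in the 15 libraries (columns, by population and replicate). The last 3 columns, lung epithelial cells, were at or near 0 in all rows, and the first Il33- WAT-MSC library was brightest in Meg3 at 58.5 RPKM.

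The table listed several transcripts for 4 of the 9 symbols, and their division shows how far the sums can be read. Of Gnas, 12 curated RefSeq transcripts exist and 2 were listed, with 99.0% of the level given to the non-coding NR_003258, whose start lies at chr2:174327699. The coding NM_001077510, which starts at chr2:174330006, was between 0.21 and 7.35 RPKM. These transcripts share 1115 exonic bases, 78.1% of the first, so reads of the shared exons cannot be told apart and the division does not show that the coding RNA was rare.

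The 2 listed Cdkn1c transcripts share 1847 exonic bases and stood at a ratio of 2.68 to 2.69 in every library. Of Igf2, NM_001315488 took 67.0%, NM_001122737 26.9% and NM_010514 6.07% of the mean level. The first 2 stood at a ratio between 2.27 and 2.54 in the 12 libraries where both reached 0.5 RPKM. NM_001315488 shares 609 exonic bases, 93.7% of its own, with each of the others, so reads of these bases cannot be told apart. NM_010514 reached 8.31 RPKM in endothelial replicate 1 and at most 1.30 in any other library. Meg3 was divided between NR_027652 at 64.0% and NR_003633 at 36.0%, which share 760 exonic bases, 40.1% of the former. The divisions of Igf2 and Meg3 do not show which start sites were used. With the most abundant transcript in place of the sum, Igf2 and Peg3os kept their calls and the direction of Meg3 between Il33+ and Il33- WAT-MSC turned to 0.08.

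Across the 15 libraries the members fell into patterns, described here by Pearson correlations of log2(RPKM + 1) without a test, since the libraries are 5 clusters of 3. Meg3 was most like Rian (r = 0.955), and Peg3 was like Meg3 (0.908), Ndn (0.867) and Peg3os (0.853). Cdkn1c ran opposite to Meg3 (-0.764) and Rian (-0.730). Igf2 was close to none of them, with r between -0.248 for Ndn and 0.407 for Plagl1. The epithelial libraries, where 5 members were low and Cdkn1c high, enter every r.

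Over 9980 genes searched, the genes most like each member were Igfbp4 (r = 0.985) and Clec3b (0.983) for Peg3, Afap1 (0.992) and Fbn1 (0.975) for Meg3, Cxcl1 (0.982) and Arhgap20 (0.978) for Rian, and Lrrc17 (0.974) for Ndn. Igfbp4, an IGF binding protein gene, stood at means of 632.9 RPKM in lung Il33+ MSC, 250.3 in Il33+ WAT-MSC and 13.3 in epithelial cells, in the same order as Peg3. Setbp1 (0.905) and Plxdc2 (0.902) were nearest to Peg3os. For Igf2 they were Stc1 (0.912) and Epha4 (0.909). Stc1, a secreted glycoprotein gene, had means of 11.03 RPKM in lung Il33+ MSC and 10.2 in endothelial cells and was at most 1.24 in the WAT-MSC and epithelial libraries. Ift22 (0.940) and Upf3b (0.921) were nearest to Cdkn1c, Smim14 (0.867) and Ankrd12 (0.844) to Plagl1, and Lamp2 (0.881) and Mt2 (0.872) to Gnas.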

How the data were processed

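RNA of 15 sorted samples was amplified (Ovation RNA-seq V2) and sequenced on an Illumina HiSeq4000. The authors trimmed and aligned reads with TopHat2 in Partek and deposited RPKM values of 12698 RefSeq transcripts, and the submitters' processing notes name mm10; tool versions and the annotation release are not given in the sources used here. Each column was matched to its sample by the library name in the label. Alignments ranged from 42711843 to 60773158 per library (median 53038567), and no libraries were identical. Counts behind single values were not used, so errors are those between libraries. Per the labels 8 libraries ran in lane 1 and 7 in lane 2.

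RPKM was summed per symbol and log2(RPKM + 1) was analysed by limma (version 3.58.1, R 4.3.3, empirical Bayes with a trend); genes entered a comparison if 3 or more of its 6 libraries reached 1 RPKM. p was adjusted by Benjamini-Hochberg over all genes tested, at 0.05. The fit was tested on simulated data. Python 3.11.15, numpy 2.4.6, pandas 2.3.3 and matplotlib 3.10.9 were used for the rest. Coordinates are from RefSeq GRCm38.p6, exons from GENCODE M21, and sequences from RefSeq tables. The members and gene lists were chosen with earlier results of these data known. Named beside the members were, of each related list, up to 8 genes past the threshold in any comparison, by largest difference, and the 2 genes most like each member in Pearson correlation, of which 1 is not reported here; cell type markers are given as sums. Alternatives were a replicate block, lane as a covariate, all libraries in a single fit, median-ratio scaling, a pseudocount of 0.1, no filter, a filter at 5 RPKM, the most abundant transcript, and leaving out each library.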

Additional observations from a re-analysis of the deposited data

How the results depend on the processing

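Counts of genes past the limma threshold between Il33+ and Il33- WAT-MSC went from 133 to 232 with a replicate block, 20 with no filter, and 49 to 121 without a library. Against lung Il33+ MSC the count of 513 became 336 with all libraries in a single fit and 191 to 447 without a library, against endothelial cells the count of 338 became 805 and 56 to 261, and between the lung populations the count of 4019 became 2835 to 3300 without a library. Of the imprinted genes, 1 (Igf2) passed between Il33+ and Il33- WAT-MSC with the replicate block, with all 15 libraries in a single fit and after median-ratio scaling. Igf2 entered these fits through the Il33+ libraries alone and had to differ. In the fits without a library 0 passed. Without an Il33+ library, in 3 fits, Igf2 failed the filter and was not tested. Against lung Il33+ MSC 1 to 2 passed without a library. Against endothelial cells 1 passed with a pseudocount of 0.1, 0 with no filter and 0 to 1 without a library. Between the lung populations 5 to 8 passed. The count of 5 arose without a lung Il33+ MSC library, where Meg3 and Ndn no longer passed the filter on low values and Gnas lost its call. Differences past no threshold changed sign. Between Il33+ and Il33- WAT-MSC, leaving out a library gave -0.0319 (without Il33+ replicate 3) to 0.57 for Peg3, -0.44 to 0.10 (without Il33+ replicate 2) for Ndn and -0.32 to 0.28 (without Il33- replicate 1) for Meg3, which was 0.0824 with the most abundant transcript. Against lung Il33+ MSC it gave -0.0455 (without Il33+ WAT-MSC replicate 2) to 0.52 for Plagl1 and -0.11 to 0.14 (without Il33+ WAT-MSC replicate 1) for Gnas, which was 0.0246 with lane as a covariate. The cause was not tested. Deviations of same-numbered libraries correlated between -0.067 and 0.155, so the numbers were not taken as pairs, and the block changed no other call of an imprinted gene. Of all values of the members under alternatives, 460 kept side and direction, 20 lost the call and 6 gained it; of the other named genes 308 kept it and 35 lost it. With 3 libraries a group, the 95% intervals of Peg3, Peg3os, Meg3, Rian, Ndn and Gnas between Il33+ and Il33- WAT-MSC include 0, so differences within them were not detectable.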
